A study of Mus musculus with 23 samples.

Results

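Fatty acid elongases and desaturases set the length and the number of double bonds of the acyl chains that a cell stores, burns or builds into membranes. The 9 genes described here are Elovl1, Elovl3, Elovl5, Elovl6, Fads1, Fads2, Fads3, Scd1 and Scd2, chosen by symbol from the 14651 genes of an RNA-seq table of mouse brown adipose tissue (BAT), and all 9 were found there. The table covers 23 male mice of 8 to 12 weeks in 4 groups, on a largely but not fully C57BL/6 background. All of them carried the floxed Mcu allele, in which exon 2 of the mitochondrial calcium uniporter gene is flanked by LoxP sites. Mcu[fl/fl] animals without a Cre transgene (control) were kept at room temperature (RT, n = 6) or at 4°C for 6 h (n = 5), and Mcu[fl/fl];Ucp1-Cre animals (BAT-Mcu-KO) were kept at RT (n = 6) or at 4°C for 6 h (n = 6). Cre was driven by the Ucp1 promoter, so the deletion was directed to brown adipocytes, and Mcu in the other cells of the depot was not measured separately. In the study's methods mice at 4°C were housed singly, had no bedding, and had no food unless stated otherwise. The sources used here do not give the food access or the caging of the RT mice during this experiment. Cold therefore cannot be told apart from food withdrawal, single housing or lack of bedding.

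Elongation runs on the endoplasmic reticulum as a cycle in which an ELOVL enzyme condenses an acyl-CoA with malonyl-CoA, and a reductase, a dehydratase and a second reductase complete the added unit. ELOVL6 turns palmitate into stearate, ELOVL1 and ELOVL3 extend saturated and monounsaturated chains to very long ones, and ELOVL5 works mostly on polyunsaturated chains. SCD enzymes put the first double bond into saturated chains with electrons passed through cytochrome b5, while FADS1 and FADS2 add double bonds to dietary polyunsaturated chains and FADS3 acts on the sphingoid bases of ceramides. In BAT Elovl3 is a long-known cold-induced gene, and palmitate synthesis and desaturation are regulated largely through SREBP-1c (gene Srebf1), ChREBP (gene Mlxipl) and liver X receptors.

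The 9 genes lie on 4 chromosomes of the mm10 (GRCm38) assembly, and 6 of them on chromosome 19. Fads3 (chr19:10041569-10060110, plus strand), Fads2 (chr19:10062765-10101746, minus strand) and Fads1 (chr19:10182888-10196877, plus strand) are neighbours, as are Scd2 (chr19:44293674-44306864, plus strand) and Scd1 (chr19:44394455-44407879, minus strand). Elovl3 is at chr19:46131897-46135694, Elovl1 at chr4:118428093-118432953, Elovl5 at chr9:77917364-77984519 and Elovl6 at chr3:129532355-129638495, all on the plus strand. Near-identical copies matter here because the reads were 2 × 25 bases and only uniquely mapping reads were counted. The coding sequences of Scd1 and Scd2 were identical at 962 of 1065 aligned bases (90.3%), and they shared an unbroken run of 147 bases that spans the junction of exons 4 and 5 of both transcripts. The 2 stretches are shown because a read pair that falls wholly inside the capitals cannot be given to either gene (capitals mark the shared run, lower case the 30 bases on each side). They were read from GENCODE transcripts, Scd1 from chr19:44401693-44401835 and chr19:44400311-44400374 (minus strand) and Scd2 from chr19:44299672-44299814 and chr19:44301212-44301275 (plus strand).
Scd1: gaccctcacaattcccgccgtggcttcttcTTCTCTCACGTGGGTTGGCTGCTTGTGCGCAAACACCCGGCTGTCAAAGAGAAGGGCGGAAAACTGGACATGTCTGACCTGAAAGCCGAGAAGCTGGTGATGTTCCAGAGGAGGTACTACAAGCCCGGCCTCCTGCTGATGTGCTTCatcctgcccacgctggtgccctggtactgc
Scd2: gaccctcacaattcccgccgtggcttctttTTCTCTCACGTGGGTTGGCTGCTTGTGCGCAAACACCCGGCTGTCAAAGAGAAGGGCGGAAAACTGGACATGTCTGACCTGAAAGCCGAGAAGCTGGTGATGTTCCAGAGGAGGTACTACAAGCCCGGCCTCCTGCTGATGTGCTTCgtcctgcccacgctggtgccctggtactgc

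Over their whole exonic sequence, 6.54% of the distinct 25-base words of Scd1 also occur in Scd2, and 5.84% of those of Scd2 occur in Scd1. Counting every annotated gene, including Scd3 and Scd4, the shared part was 9.97% for Scd1 and 8.57% for Scd2. Fads2 and Fads3, whose coding sequences were 69.9% identical, shared 1 run of 54 bases across the junction of exons 10 and 11. It lies at chr19:10065602-10065673 and chr19:10064770-10064811 in Fads2 and at chr19:10056225-10056296 and chr19:10056425-10056466 in Fads3, in each case with 30 flanking bases on both sides.
Fads2: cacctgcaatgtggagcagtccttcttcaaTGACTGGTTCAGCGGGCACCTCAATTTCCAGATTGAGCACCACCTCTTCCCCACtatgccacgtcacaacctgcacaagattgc
Fads3: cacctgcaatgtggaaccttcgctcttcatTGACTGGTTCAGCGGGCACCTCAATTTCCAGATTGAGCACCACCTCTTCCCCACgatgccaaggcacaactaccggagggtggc

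That run gave 33 shared 25-base words, 1.00% of those of Fads2 and 0.858% of those of Fads3. Elovl6 shared 7.49% of its words with other genes, most of them with the predicted gene Gm11295, and Elovl1 shared 1.04% with Cdc20, whose exons overlap it by 53 bases on the opposite strand. Elovl3 and Fads1 shared none, though Elovl3 overlaps Pitx3 by 10 exonic bases on the opposite strand, and the counting did not use strand. The values of Scd1, Scd2 and Elovl6 are therefore uncertain for the reads that fall in those stretches.

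The libraries held 7129271 to 21006347 counted reads per mouse. Mcu read 81.4 to 136 normalized counts in the controls at RT and 15.2 to 42.4 in BAT-Mcu-KO at RT, with no overlap, and it was lower in BAT-Mcu-KO by 1.66 on the log2 scale at RT and by 1.61 at 4°C (limma adjusted p = 0.001 and 0.00367). Ucp1, the uncoupling protein that defines brown adipocytes, was high in all mice (50590 to 70028 at RT). Skeletal muscle transcripts differed widely between mice of a group, with a summed level of 7 markers from 6.22 to 43515, and 5 mice stood at 26524 or more (control at 4°C 2 and 5, BAT-Mcu-KO at RT 3, 4 and 6). Where a member's cold call was lost without these 5 mice, both values are given.

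The members covered a wide range of levels. Per kilobase of exon, Scd1 read 59530 ± 15859 normalized counts in the controls at RT (SD, n = 6) and ranked 9 among 13761 genes with an annotated length. Elovl6 followed at 1554 ± 241 per kb and Elovl3 at 1055 ± 469 per kb, a pair whose ranges overlapped. Elovl5 read 423 ± 91.4 per kb and stood apart from Elovl3 above it and from Scd2 below it. Scd2 read 111 ± 30.8 per kb and Elovl1 51.7 ± 20.1 per kb, and their ranges overlapped. The 3 FADS genes were lowest, at 24.3 ± 5.13 per kb for Fads1, 14.4 ± 5.07 for Fads3 and 12.1 ± 3.46 for Fads2, and neighbours among them overlapped. Scd1 thus stood 38.3-fold above Elovl6, the next in order, and took 1.52% to 3.15% of all counted reads in the controls at RT.

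**Figure D1:**
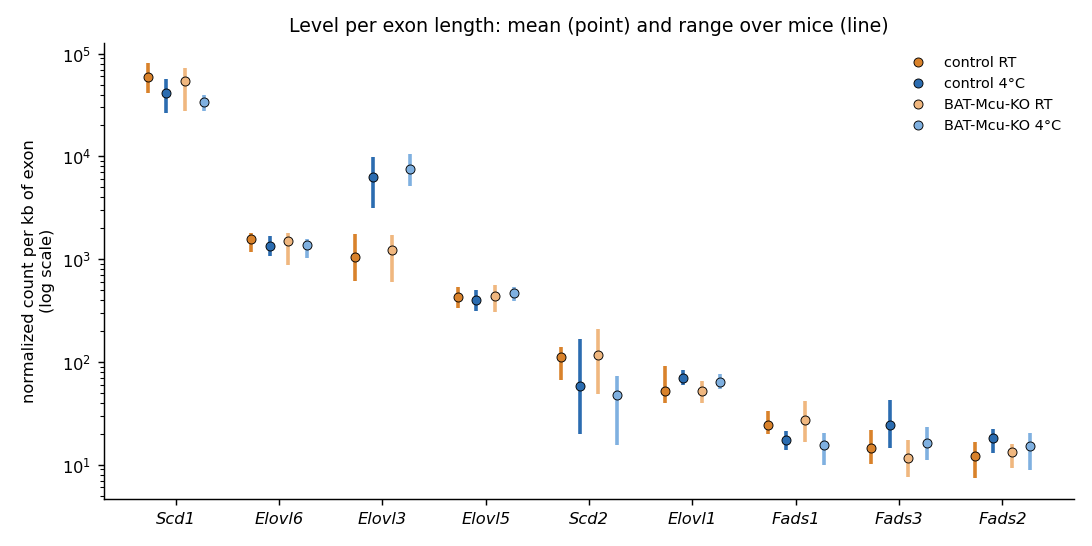
Mean level (points) and range over mice (lines) of the 9 genes in normalized counts per kilobase of exon, on a log axis, for the 4 groups. Scd1 lies highest in all groups, and Elovl3 moves from 1055 per kb in the controls at RT to 6235 per kb at 4°C.

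At 4°C the order changed at its top and further down. Elovl3 reached 6235 ± 2761 per kb in the controls and stood above Elovl6 at 1345 ± 247 per kb without overlap. The mean of the ratio of Elovl3 to Elovl6 normalized counts went from 0.212 ± 0.0954 at RT to 1.37 ± 0.372 at 4°C in the controls and from 0.269 ± 0.134 to 1.71 ± 0.37 in BAT-Mcu-KO. Scd1 remained the highest member, 6.61-fold above Elovl3 per kb in the controls at 4°C and 4.42-fold above it in BAT-Mcu-KO at 4°C. Scd2 stood above Elovl1 per kb at RT, by 2.15-fold in the controls and 2.23-fold in BAT-Mcu-KO. At 4°C Elovl1 stood above Scd2, by 1.19-fold and 1.34-fold, and the ranges of this pair overlapped in all groups. At the low end Fads3, Fads2 and Fads1 read 24.5, 18.1 and 17.2 per kb in the controls at 4°C, with overlapping ranges.

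The first question was how the members respond to cold. In control mice 4 of the 9 genes rose (Elovl3, Fads3, Fads2 and Elovl1), Scd2 fell, and Scd1, Fads1, Elovl6 and Elovl5 did not pass the test. In BAT-Mcu-KO mice Elovl3 rose, Fads1, Scd1 and Scd2 fell, and the other 5 did not pass. Cold changed a large part of the table: limma called 46.0% of all genes in the controls (22.3% higher and 23.7% lower) and 43.3% in BAT-Mcu-KO (21.4% higher and 21.9% lower) at an adjusted p under 0.05. The share of members called, 5 of 9 and 4 of 9, lies near these backgrounds. The median log2 difference over the members was −0.08 in the controls and 0.13 in BAT-Mcu-KO, against −0.02 over all genes in both. When each library was scaled to its 75th percentile instead, the median of all genes in the controls moved to −0.13 and the share of higher genes among those called went from 48.5% to 38.2%, and the members called became 1 higher and 3 lower.

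The average of both cold contrasts, a comparison added after the data had been seen, uses all 23 mice and estimates each response more tightly. Here 7 of 9 members were called, with Elovl3, Fads3, Fads2 and Elovl1 higher and Scd2, Fads1 and Scd1 lower. Over all genes 57.4% were called (27.7% higher and 29.7% lower). The response of no member was called to differ between the genotypes, as set out further on. The plot of fitted differences shows each member in both genotypes.

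**Figure D2:**
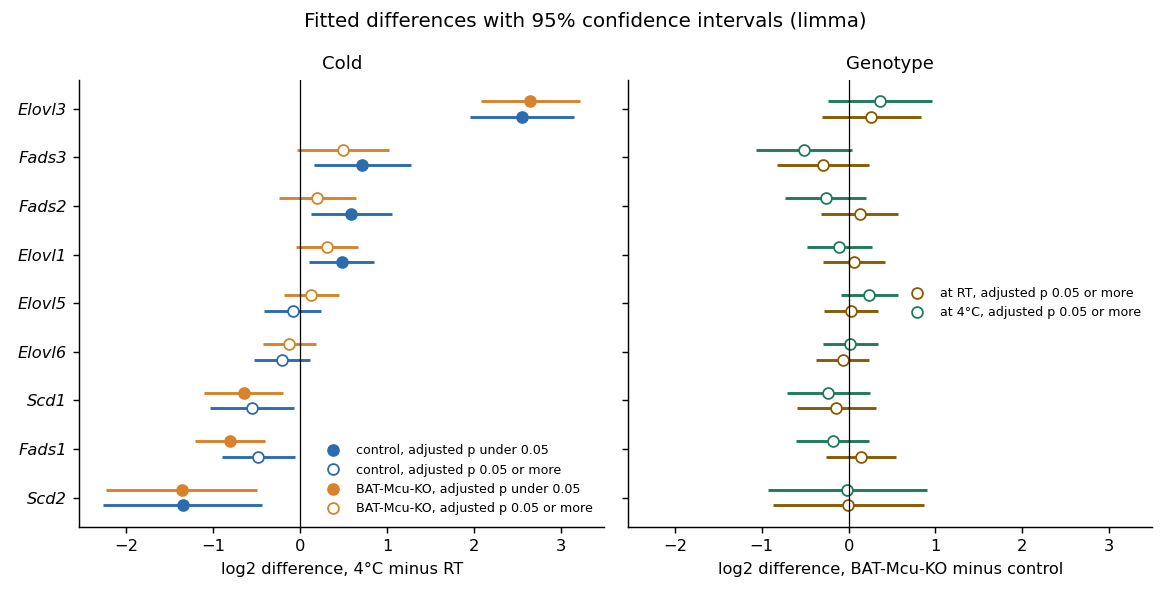
Fitted log2 differences of the 9 genes with 95% confidence intervals, for cold in each genotype (left) and for genotype at each temperature (right). Filled points have a limma adjusted p under 0.05. Elovl3 lies at 2.55 and 2.65 for cold, and every interval for genotype includes 0.

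Elovl3, the elongase of saturated and monounsaturated very long chains, had the largest response of the 9. In the controls it read from 1218 to 3458 normalized counts at RT (median 1612) and 10846, 19604, 16068.5, 8894 and 6159 in the 5 mice at 4°C. The BAT-Mcu-KO mice ranged from 1180 to 3373 at RT (median 2391) and from 10132 to 20894 at 4°C (median 14976). Every mouse at 4°C thus read higher than every mouse at RT, in both genotypes. Over all genes, RT and 4°C groups did not overlap for 25.2% in the controls and 24.2% in BAT-Mcu-KO. The fitted log2 difference was 2.55 ± 0.29 (SE) in the controls and 2.65 ± 0.28 in BAT-Mcu-KO, with limma adjusted p-values of 9.5e-08 and 2.6e-08. Averaged over genotypes it was 6.07-fold (log2 2.60, 95% interval 2.19 to 3.02), and 0.758% of all genes rose more. The 11 mice at 4°C spread between 6159 and 20894. Elovl3 kept its call in both genotypes under all alternatives and with each mouse left out.

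Elovl1, which makes the saturated and monounsaturated very long chains used in sphingolipids, rose more modestly. It ranged from 108 to 246 normalized counts in the controls at RT (median 114) and read 178, 161, 162, 216 and 229 at 4°C. In the controls 5 of 6 RT values lay below all of the cold values, and 1 mouse, control RT 6 at 246, lay above them. BAT-Mcu-KO mice ranged from 109 to 179 at RT (median 135) and from 149 to 209 at 4°C (median 176), an overlap in which 3 cold mice exceeded all RT mice. The log2 difference was 0.48 ± 0.18 in the controls (limma adjusted p = 0.0336) and 0.30 ± 0.17 in BAT-Mcu-KO (limma adjusted p = 0.164). The average over genotypes was 1.31-fold (log2 0.39, 95% interval 0.13 to 0.65, limma adjusted p = 0.0096). In the controls alone the limma call was lost when any of 6 mice was left out (control RT 1, 2, 4 or 5, control 4°C 4 or 5, adjusted p = 0.066 to 0.094), and under DESeq2 and edgeR (adjusted p = 0.053 and 0.064).

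Elovl5, the elongase of polyunsaturated chains, was called in neither genotype. Control mice ranged from 1185 to 1872 normalized counts at RT (median 1455) and read 1353, 1757, 1391, 1368 and 1107 at 4°C. BAT-Mcu-KO mice ranged from 1073 to 1991 at RT (median 1507) and from 1375 to 1896 at 4°C (median 1686). All 4 groups overlapped. The difference by cold over both genotypes was log2 0.02 with a 95% interval of −0.20 to 0.25 (limma adjusted p = 0.877), and its sign changed with the processing.

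Elovl6, which extends palmitate to stearate, was not called in either genotype. The controls ranged from 7585 to 11566 normalized counts at RT (median 10673) and read 8044.5, 10842, 9698, 7746 and 6925 at 4°C. In BAT-Mcu-KO the range was 5646 to 11495 at RT (median 10096) and 6631 to 10113 at 4°C (median 9027). The RT and cold values overlapped in both genotypes. Over both genotypes the difference by cold was log2 −0.17 with a 95% interval of −0.39 to 0.05 (limma adjusted p = 0.19). Leaving out BAT-Mcu-KO RT 5, the mouse at 5646, made it −0.24 with an adjusted p of 0.021 in limma. With all mice and 75th percentile scaling it was −0.25 (limma adjusted p = 0.048).

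Scd1, the main stearoyl-CoA desaturase of adipose tissue, read lower in the cold. Its normalized counts ranged from 200220 to 392751 in the controls at RT (median 301019) and were 194146, 267253, 275199, 142720 and 128084 at 4°C. In BAT-Mcu-KO they ranged from 134114 to 353623 at RT (median 288122) and from 135445 to 194165 at 4°C (median 161573). In that genotype 5 RT mice lay above the highest cold mouse, and BAT-Mcu-KO RT 5 lay below the lowest. The log2 difference was −0.65 ± 0.22 in BAT-Mcu-KO (limma adjusted p = 0.0197) and −0.56 ± 0.23 in the controls, where it missed the threshold (limma adjusted p = 0.0533). Over both genotypes the level at 4°C was 0.659 of that at RT (log2 −0.60, 95% interval −0.93 to −0.27, limma adjusted p = 0.00235). The controls passed under DESeq2 and edgeR on recovered reads (adjusted p = 0.030 and 0.044). In BAT-Mcu-KO the call was lost without BAT-Mcu-KO RT 2 (log2 −0.56, limma adjusted p = 0.056) and without the 5 mice with most muscle RNA (log2 −0.60, limma adjusted p = 0.103).

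Scd2, an SCD isoform best known from brain, had the lowest fitted log2 difference of the 9 and fell in both genotypes. In the controls it ranged from 362 to 769 normalized counts at RT (median 647) and read 253, 903, 202, 124 and 108 at 4°C. There, 4 of 5 cold mice lay below all RT mice, and control 4°C 2, 1 of the mice with most muscle RNA, lay above them all. BAT-Mcu-KO mice ranged from 269 to 1135 at RT (median 609) and from 84.2 to 397 at 4°C (median 281), and 3 of the 6 cold mice lay below all RT mice. The log2 difference was −1.35 ± 0.44 in the controls and −1.36 ± 0.42 in BAT-Mcu-KO (limma adjusted p = 0.0144 and 0.0109). Averaged over genotypes, the level at 4°C was 0.39 of that at RT (95% interval of the log2 difference −1.99 to −0.73). In the controls the call was lost without control 4°C 4 (log2 −1.13, limma adjusted p = 0.052) or control 4°C 5 (−1.09, adjusted p = 0.057), and under DESeq2 and edgeR on recovered reads (log2 −0.94 and −0.96, adjusted p = 0.111 and 0.085).

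The ratio of Scd1 to Scd2 normalized counts was 488 ± 76.3 in the controls at RT and ranged from 366 to 567, and at 4°C it ranged from 296 to 1365. In BAT-Mcu-KO it lay between 311 and 520 at RT and between 344 and 1888 at 4°C. Scd2 was therefore not a fixed share of Scd1 across mice, and whether reads of Scd1 reached the count of Scd2 was not tested.

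**Figure D3:**
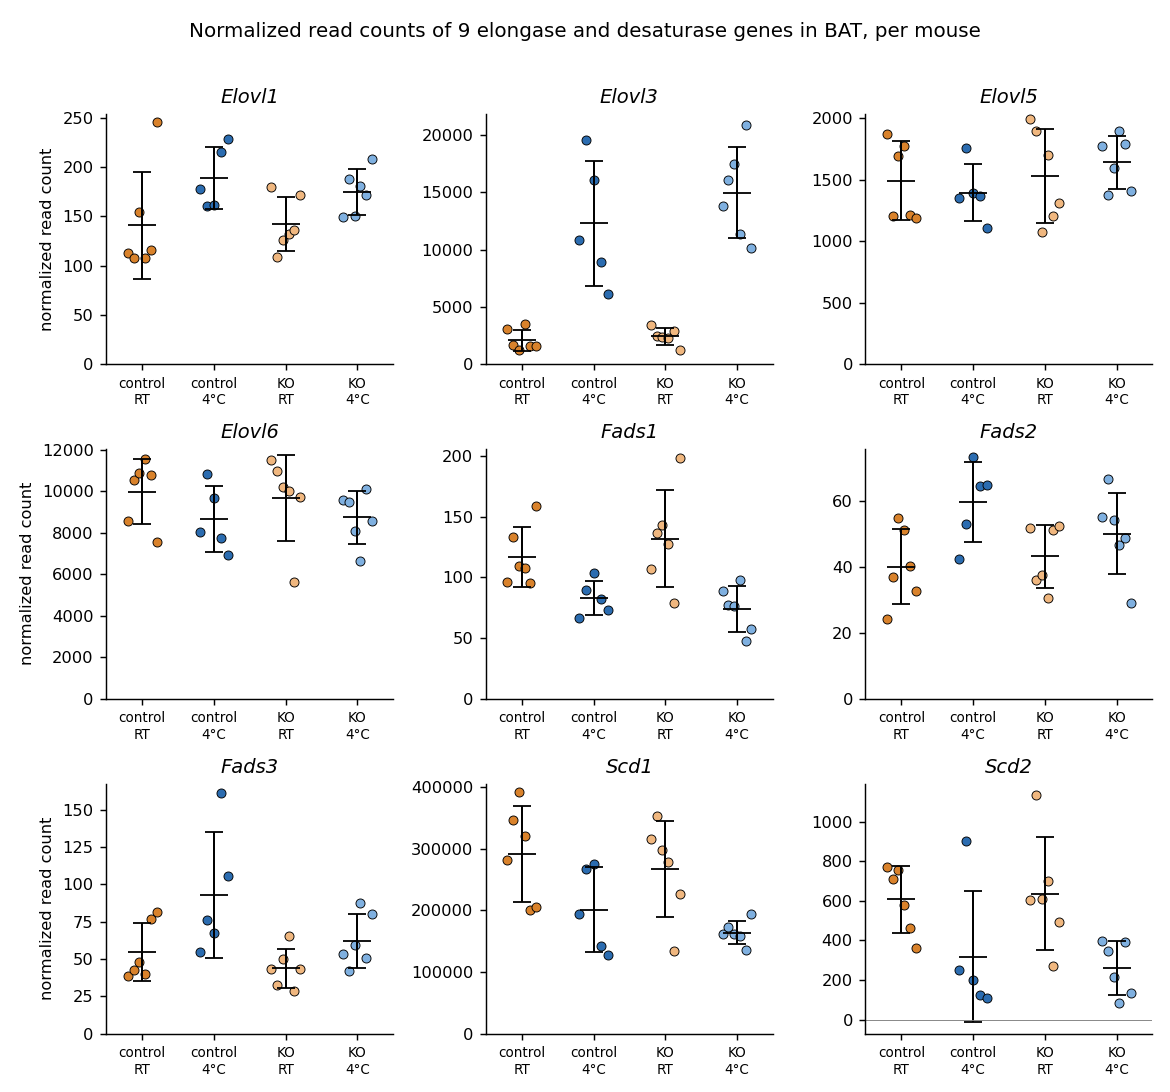
Normalized read counts of the 9 genes in each mouse (points) with the group mean and SD (bars), on linear axes, for control and BAT-Mcu-KO (KO) mice at RT and 4°C. Elovl3 separates the temperatures completely, Scd2 falls in all cold mice except control 4°C 2, at 903, relative to the RT medians, and the genotypes overlap for all genes.

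Fads1, a desaturase of the late steps of polyunsaturated fatty acid synthesis, fell in BAT-Mcu-KO. It ranged from 95.3 to 159 normalized counts in the controls at RT (median 109) and read 66.8, 89.5, 103, 82.3 and 73 at 4°C. Of those cold mice 4 lay below all RT mice. BAT-Mcu-KO mice ranged from 79 to 198 at RT (median 132) and from 47.3 to 97.9 at 4°C (median 76.9), with 4 of 6 cold mice below all RT mice. The log2 difference was −0.81 ± 0.20 in BAT-Mcu-KO (limma adjusted p = 0.0016) and −0.48 ± 0.21 in the controls (limma adjusted p = 0.0583). The controls passed in 4 of 13 alternatives and in 5 of 23 fits that left out a mouse. Among these were DESeq2 (log2 −0.49, DESeq2 adjusted p = 0.049) and 75th percentile scaling (−0.59, limma adjusted p = 0.0187). Over both genotypes the level at 4°C was 0.64 of that at RT (log2 −0.64, 95% interval −0.94 to −0.35, limma adjusted p = 3.8e-04). Without the 5 mice with most muscle RNA the BAT-Mcu-KO difference was −0.53 (limma adjusted p = 0.0866).

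Fads2, which takes the first step of the same route, read higher in the controls at 4°C. Its counts were low: 24.3 to 54.7 normalized counts in the controls at RT (median 38.6) and 42.5, 53.1, 73.4, 64.6 and 65 at 4°C, resting on 21 to 88 reads per library there. In BAT-Mcu-KO they ranged from 30.5 to 52.3 at RT (median 44.3) and from 29.2 to 66.6 at 4°C (median 51.6). The log2 difference was 0.59 ± 0.23 in the controls (limma adjusted p = 0.0342) and 0.20 ± 0.21 in BAT-Mcu-KO (limma adjusted p = 0.489). Over both genotypes it was 1.31-fold (log2 0.39, 95% interval 0.07 to 0.71, limma adjusted p = 0.0327), a call that was lost without the 5 mice with most muscle RNA (log2 0.34, limma adjusted p = 0.157) and when any of 9 mice was left out (control RT 1 or 6, control 4°C 3, 4 or 5, BAT-Mcu-KO RT 2 or 4, BAT-Mcu-KO 4°C 1 or 2, adjusted p = 0.05 to 0.066). The control call was lost without control RT 1, 2 or 6 or control 4°C 3, 4 or 5 (limma adjusted p = 0.054 to 0.097). The ratio of Fads1 to Fads2 normalized counts went from 3.15 ± 1.17 at RT to 1.41 ± 0.225 at 4°C in the controls and from 3.19 ± 1.1 to 1.54 ± 0.445 in BAT-Mcu-KO.

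Fads3 ranged from 38.7 to 81.4 normalized counts in the controls at RT (median 45.4) and read 54.6, 75.9, 67.2, 161 and 106 at 4°C. BAT-Mcu-KO mice ranged from 28.8 to 65.4 at RT (median 43.3) and from 42.1 to 87.8 at 4°C (median 56.2). Both pairs of groups overlapped, and 2 cold mice of each genotype exceeded all RT mice. The log2 difference was 0.71 ± 0.27 in the controls (limma adjusted p = 0.0324) and 0.50 ± 0.26 in BAT-Mcu-KO (limma adjusted p = 0.125). Over both genotypes it was 1.52-fold (log2 0.61, 95% interval 0.22 to 0.99, limma adjusted p = 0.00724). Leaving out control 4°C 4, the mouse at 161, took the control difference to 0.49 (limma adjusted p = 0.14), and the call was also lost without control RT 1, 2, 3 or 4 or control 4°C 5 (limma adjusted p = 0.054 to 0.078). Without the 5 mice with most muscle RNA the Elovl1, Fads2 and Fads3 differences in the controls stayed positive but were no longer called (log2 0.45, 0.59 and 0.68, limma adjusted p = 0.113, 0.0965 and 0.0995).

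In these bulk samples fewer cells of a type and less RNA per cell cannot be told apart. Over all genes limma called 22.3% higher and 23.7% lower in the controls, and 21.4% and 21.9% in BAT-Mcu-KO. Of 8 brown adipocyte markers 3 rose and 3 fell in the controls, and 3 rose and 2 fell in BAT-Mcu-KO, while of 5 general adipocyte markers 1 rose and 3 fell in the controls and 2 fell in BAT-Mcu-KO (with 75th percentile scaling the general adipocyte count in the controls was 0 higher and 4 lower). The summed level of the brown adipocyte list was 103971 to 145194 normalized counts in RT mice and 221368 to 278089 in cold mice, without overlap, and that of the general list 124766 to 166932 and 106646 to 132118. Much of the brown sum was Ucp1, itself higher in the cold (50590 to 70028 at RT and 140888 to 198043 at 4°C). The median log2 difference over the 8 brown markers was −0.31 in the controls and −0.11 in BAT-Mcu-KO. Among the markers of other cells, 3 of 5 endothelial genes rose in both genotypes, and their summed level was 2844 to 4377 normalized counts at RT and 5166 to 9764 at 4°C. Of 5 macrophage genes 1 rose in the controls and 3 in BAT-Mcu-KO. The summed level of 7 muscle genes overlapped between all groups and none of the 7 was called by limma. Of 6 Schwann cell genes 1 rose in each genotype (Pmp22, which other cells also express), and 1 fell in BAT-Mcu-KO. Of 5 fibroblast genes none rose in the controls and 1 in BAT-Mcu-KO. Of 3 measured white adipocyte genes 1 rose and 1 fell in the controls, and 1 rose and 2 fell in BAT-Mcu-KO: Agt rose in both genotypes, and Lep, a hormone gene, read 40.9 to 448 normalized counts at RT and 5.01 or less at 4°C. Of the list for sebaceous gland and skin, where Elovl3 is also expressed, Krt5 and Krt14 were not in the table, and Krt79 and Mgst1 fell in both genotypes. The part of these cell types in the members' differences was not tested.

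The second question was whether loss of Mcu changes these genes. Only the BAT-Mcu-KO mice carried the Ucp1-Cre transgene, so its effect and that of Mcu loss cannot be told apart. No member was called between BAT-Mcu-KO and control mice at RT or at 4°C by limma, and none had an unadjusted p under 0.05. DESeq2 and edgeR on recovered reads called none either. Over all genes, limma called 0.0478% at RT and 0.0751% at 4°C. The interaction of genotype and temperature, which asks whether the cold response differs between genotypes, was called for 0 of 9 members and 0% of all genes (878 of 14651 had an unadjusted p under 0.05, and DESeq2 called 28 and edgeR 0).

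The intervals show what these groups could have missed. At RT the BAT-Mcu-KO minus control difference ran from log2 −0.29 for Fads3 to 0.26 for Elovl3. The interval for Elovl6 was the tightest of the enzymes of palmitate handling, at −0.37 to 0.24, and for Scd1 it was −0.60 to 0.32. Scd2 had the widest, −0.87 to 0.87. At 4°C the differences ran from −0.51 for Fads3 (95% interval −1.07 to 0.04) to 0.36 for Elovl3 (−0.24 to 0.96). For the cold response itself, the difference between genotypes was log2 0.10 for Elovl3 (95% interval −0.73 to 0.93), −0.39 for Fads2 (−1.03 to 0.25) and −0.33 for Fads1 (−0.91 to 0.26). Fads2, Fads3 and Elovl1 passed in the controls and not in BAT-Mcu-KO, and Fads1 and Scd1 the reverse, but none of these interactions was called (limma adjusted p = 0.882 or more).

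The other genes of the pathway moved in both directions, and the plot of pathway lists shows them gene by gene. Beside the list counts below, 22.3% of all genes were called higher and 23.7% lower in the controls. In BAT-Mcu-KO these shares were 21.4% and 21.9%. Of the genes for the supply of malonyl-CoA and palmitate, 7 of 9 were lower in the cold and 1 higher in each genotype, with a median log2 difference of −0.88 in the controls and −0.93 in BAT-Mcu-KO. Thrsp, a lipogenic protein gene, fell by 3.02 on the log2 scale in the controls, Acss2 (acetyl-CoA synthetase) by 1.35 and Acacb (acetyl-CoA carboxylase) by 0.50, while Mlycd, which breaks down malonyl-CoA, rose by 1.01. Fasn, which makes palmitate, read 135614 to 235980 normalized counts in the controls at RT and 132019, 159787, 141758, 101473 and 54513 at 4°C, a log2 difference of −0.73 ± 0.26 (limma adjusted p = 0.0241). Elovl6, which uses these products, differed by −0.21 in the same mice and was not called.

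**Figure D4:**
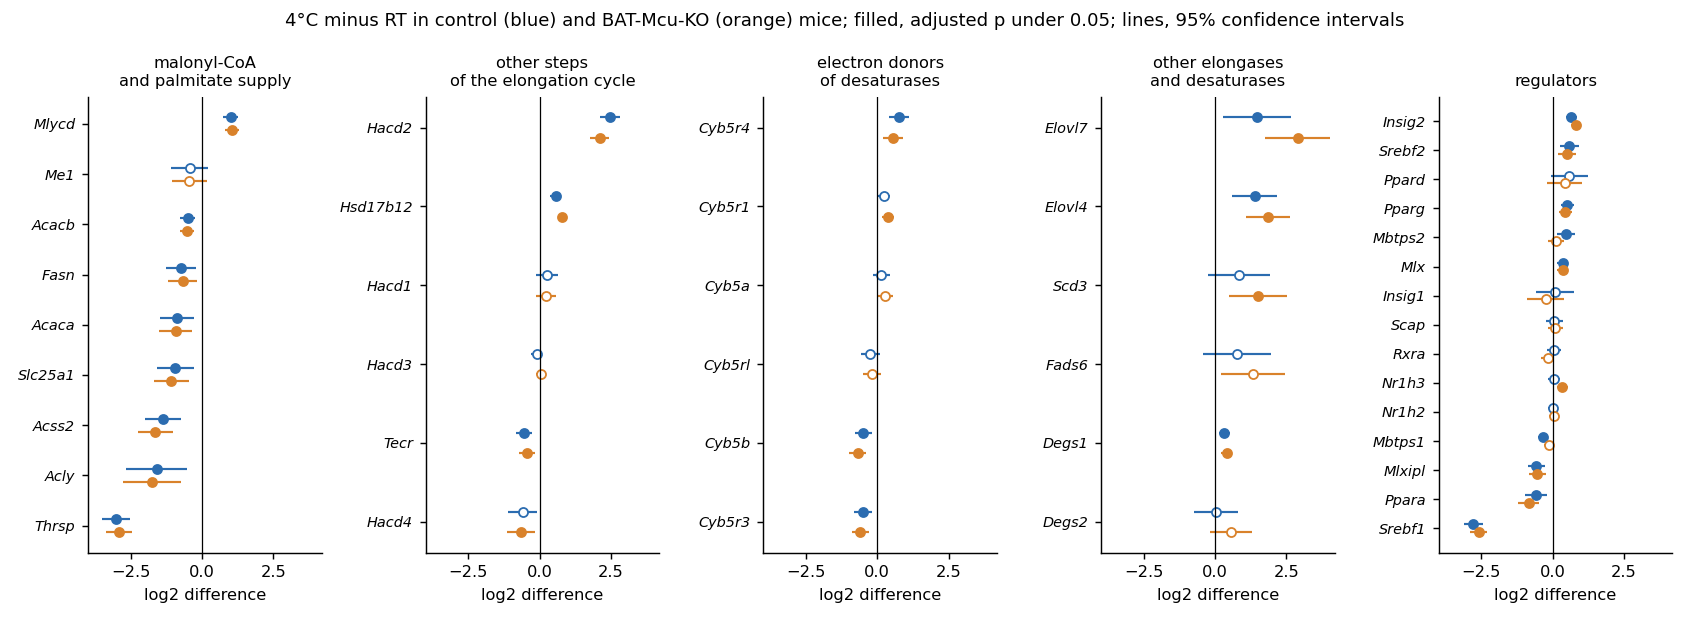
Fitted log2 differences between 4°C and RT with 95% confidence intervals for 5 lists of genes around the members, in control (blue) and BAT-Mcu-KO (orange) mice. Filled points have a limma adjusted p under 0.05, and in the first list 7 of 9 genes are filled and lie to the left in both genotypes, while Hacd2 leads its list at 2.46 and 2.11.

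Among the 6 measured genes for the other steps of the elongation cycle, 2 rose and 1 fell in the controls, and 2 rose and 2 fell in BAT-Mcu-KO. Hacd2, a dehydratase of the cycle, read 798 to 1582 normalized counts in the controls at RT and 5759 to 8003 at 4°C without overlap, a log2 difference of 2.46 ± 0.17 (limma adjusted p = 2.0e-11). Hsd17b12, the ketoacyl-CoA reductase, rose by 0.56, and Tecr, the enoyl-CoA reductase that ends the cycle, fell by 0.54. Hacd1 and Hacd3, at log2 0.26 and −0.11 in the controls, were not called. A rise of Elovl3 and Hacd2 and a fall of Tecr thus stood side by side in both genotypes, with Hacd2 at 2.11 and Tecr at −0.44 in BAT-Mcu-KO.

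The electron donors of the desaturases were split. Of 6 measured genes 1 rose and 2 fell in the controls, and 2 rose and 2 fell in BAT-Mcu-KO. Cyb5r3, the main cytochrome b5 reductase, and Cyb5b, the cytochrome b5 of the outer mitochondrial membrane, fell by 0.49 and 0.49 on the log2 scale in the controls. Cyb5r4 rose by 0.77, and Cyb5a, the microsomal cytochrome b5, was not called (log2 0.15).

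Of the other elongase and desaturase genes, 6 of 8 were in the table. Elovl4, Elovl7 and Degs1, the dihydroceramide desaturase, rose in the controls, and Scd3 rose in addition in BAT-Mcu-KO, while Fads6 and Degs2 did not pass in either. These were low genes apart from Degs1: Elovl4 averaged 7.99 normalized counts in the controls at RT and 23.7 at 4°C, Elovl7 4.41 and 11, and Scd3 7.48 and 13.6. Under 75th percentile scaling 1 of the 3 calls in the controls was left. Scd3 shares sequence with Scd1 and Scd2, as given above, so its value is uncertain.

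Among 15 regulators 5 rose and 4 fell in the controls, and 5 rose and 3 fell in BAT-Mcu-KO. Srebf1 ranged from 1649 to 2795 normalized counts in the controls at RT and from 251 to 407 at 4°C, a log2 difference of −2.78 ± 0.16 (limma adjusted p = 9.55e-13). Insig2, which holds SREBP precursors in the endoplasmic reticulum, rose by 0.65, Pparg by 0.51, and Mbtps1, a protease of SREBP processing, fell by 0.34. Mlxipl fell by 0.57 and Ppara by 0.58, while the liver X receptor genes Nr1h3 and Nr1h2 were not called in the controls (0.06 and 0.00). Transcript levels do not give the processing of SREBP-1c, which was not measured.

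Genes that consume or activate long acyl chains were mixed. Of 7 acyl-CoA synthetases 2 rose and 1 fell in each genotype, with Slc27a1 at −1.21, Slc27a2 at 0.59 and Acsl4 at 0.68 in the controls. Of 19 genes for the use of long and very long chains, 6 rose in each genotype, and 8 fell in the controls and 7 in BAT-Mcu-KO. Dgat2, which esterifies triglycerides, fell by 2.62 and Dgat1 rose by 0.88 in the controls. Lclat1, an acyltransferase of phospholipid remodelling, rose by 1.68.

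Mice of a group also differed from each other, and some members differed together. After subtracting each group's mean, the 36 pairs of members were correlated over the 23 mice, with p-values from 100000 permutations within groups and Benjamini-Hochberg adjustment over the 36 pairs. Elovl6 and Scd2 gave Pearson's r = 0.740 (Spearman's rho = 0.677, permutation adjusted p = 0.00216 and 0.0472), and r was 0.669 without the 2 mice farthest from the median of Elovl6. Elovl6 and Scd1 gave r = 0.732 (rho = 0.658, permutation adjusted p = 0.0315 and 0.0482), and 0.652 without 2 mice. Scd1 and Scd2 gave r = 0.591 (rho = 0.545, permutation adjusted p = 0.0416 and 0.082), and 0.455 without 2 mice. In each pair these 2 mice were chosen by the first gene alone. Control 4°C 2, at 903 for Scd2, was not left out on its own, so its weight in the pairs with Scd2 was not tested. The other 33 pairs, which include every pair with a FADS gene, did not pass, and the median r of the 36 was 0.0424. Scd1 and Scd2 share sequence, as shown above, and the part of reads given to the wrong copy in their relation was not tested.

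**Figure D5:**
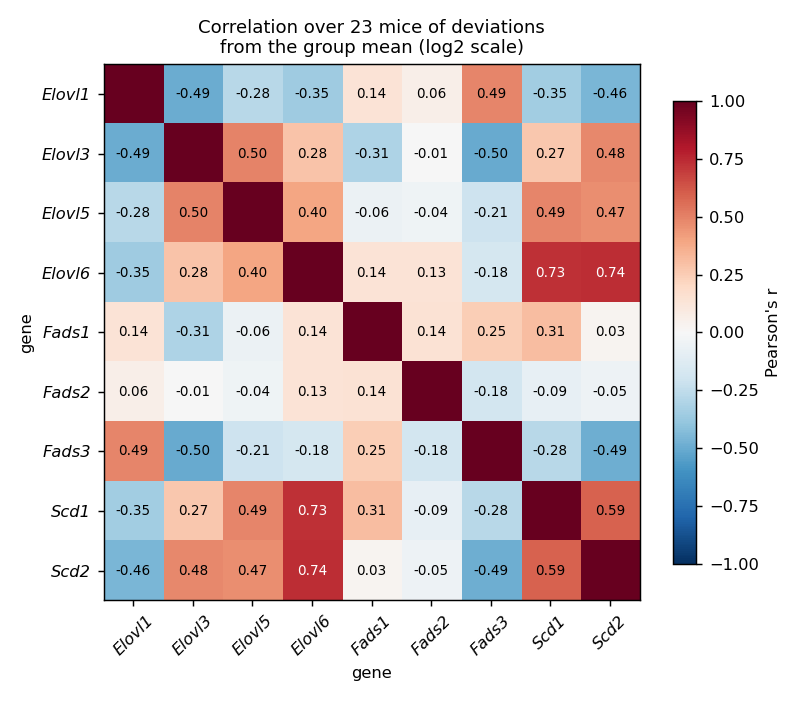
Pearson correlation of the members' deviations from their group means over 23 mice (log2 scale), red for positive and blue for negative. Elovl6, Scd1 and Scd2 form the darkest block, at 0.59 to 0.74.

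The genes of the whole table most like each member in these within-group deviations were then listed, as a description over 23 mice whose libraries also differ in depth and muscle RNA. Each was picked for the highest r among all genes, and what such a search gives by chance was not tested. Elovl6 was closest to Acaca (r = 0.933) and Acss2 (0.908), Scd1 to Fasn (0.829) and Bhlhe40 (0.815), and Scd2 to Pgd (0.880) and Pcyt2 (0.874). For Elovl6 the r with Fasn was 0.859. Elovl3 was closest to Clec16a (0.772) and Sult5a1 (0.769), Elovl5 to Gm14046 (0.735) and Atg9b (0.724), and Elovl1 to Bag5 (0.740) and Rpl13 (0.738). The FADS genes were closest to A530013C23Rik (0.791) for Fads1, AI317395 (0.855) and Slc35b2 (0.837) for Fads2, and Casc3 (0.819) and Esam (0.80) for Fads3. The r of Fasn was 0.614 with Scd2, 0.373 with Fads1 and 0.333 with Elovl5. With Elovl3, Elovl1, Fads2 and Fads3 it lay between −0.256 and 0.144.

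Promoter sequence from RefSeq (GRCm38.p6) was at hand for 5 of the 9 members, Elovl1, Elovl5, Elovl6, Fads2 and Fads3. A window from 250 bases before to 50 bases after each start was searched on both strands for TCACNCCAC (a sterol regulatory element), CACGTG (an E-box), CCAAT (the NF-Y box) and TGACGTCA (a cAMP response element). Of 32851 promoters in the table, 1.24%, 7.15%, 37.4% and 1.79% held them. None of the members' windows held TCACNCCAC, and those of Elovl6 and Fads2 held none of the 4. NF-Y boxes were found for Elovl1 (in 1 of its 2 windows), Fads3 and Elovl5, and also for Srebf1 and Fasn, which fell in the cold. Elovl5, which was not called, held the most matches of the members, including TGACGTCA beginning at base 4 after the start. The 250 bases before the start are shown for these 3, with matches in capitals, from chr4:118427843-118428092, chr19:10041298-10041547 and chr9:77917115-77917364 (all plus strand).
Elovl1: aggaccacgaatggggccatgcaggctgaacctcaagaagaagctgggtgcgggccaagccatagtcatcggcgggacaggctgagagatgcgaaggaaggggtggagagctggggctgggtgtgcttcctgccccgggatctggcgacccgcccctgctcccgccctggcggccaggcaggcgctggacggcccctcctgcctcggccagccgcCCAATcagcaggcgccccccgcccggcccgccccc
Fads3: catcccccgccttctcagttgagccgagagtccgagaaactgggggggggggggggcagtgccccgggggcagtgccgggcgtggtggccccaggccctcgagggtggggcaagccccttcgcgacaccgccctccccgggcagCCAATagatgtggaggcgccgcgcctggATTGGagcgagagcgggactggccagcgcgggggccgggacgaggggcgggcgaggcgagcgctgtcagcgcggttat
Elovl5: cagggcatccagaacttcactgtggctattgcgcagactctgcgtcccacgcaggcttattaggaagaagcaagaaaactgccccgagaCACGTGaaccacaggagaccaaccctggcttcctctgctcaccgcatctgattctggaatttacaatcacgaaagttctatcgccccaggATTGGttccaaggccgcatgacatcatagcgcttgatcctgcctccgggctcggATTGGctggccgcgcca

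A match is a string of letters and not a bound site, and these windows do not show which factors acted in the tissue.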

How the data were processed

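BAT RNA of 23 mice was sequenced after Smart-seq2 library preparation on a NextSeq 500. Per the study's methods, the authors aligned reads to mm10 with STAR 2.4.0j and GENCODE M7 annotation, counted uniquely mapping exonic reads without regard to strand with HTSeq, and kept genes that reached 8 reads in 6 or more samples. The deposited signal values are those gene counts divided by the authors' DESeq2 size factors. Whole reads were recovered for 100% of values (tolerance 0.01), with 7129271 to 21006347 per mouse.

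The main test was limma 3.58.1 (variance trend) on the deposited values after adding 1 and taking log2, fitting 1 mean per group over all 23 mice, with Benjamini-Hochberg adjustment over 14651 genes. Fold changes are on that scale, which understates the change of low genes. Genes were called at an adjusted p under 0.05. Alternatives were DESeq2 1.42.0 and edgeR 4.0.16 on recovered reads, other pseudocounts, filters and scalings, a replicate block and each mouse left out. The script was tested on simulated data.

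The 9 members and the gene lists were chosen with earlier results of these data known. All members are named, with up to 4 genes of each pathway list by smallest p in the controls, others being named after their values were seen, and the 2 genes most correlated with each member. Some genes that this rule names are not reported here. Exon lengths and coding sequences came from GENCODE M21 (mm10), which matched 93.9% of symbols, and promoters from RefSeq (GRCm38.p6). 19 symbols had been turned into dates in the deposited table and were not used as names. R 4.3.3 and Python 3.11.15 were used.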

Additional observations from a re-analysis of the deposited data

Results flagged for a closer look

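In 3 of 36 gene and group combinations of the members, 1 mouse lay outside Dixon's 95% limit for its group, and chance flags about 1 in 20 such groups. Elovl1 read 246 normalized counts in control RT 6 against 108 to 155 in the other 5 mice. Without that mouse the fitted cold difference in the controls was log2 0.65, the highest of the fits that left out a mouse. Elovl6 read 5646 in BAT-Mcu-KO RT 5 against 9731 to 11495 in the others. The members Scd1 (134114), Scd2 (269), Fads1 (79) and Fads3 (28.8) were also lowest of their group in that mouse. So were Fasn (66885), Srebf1 (1665), Tecr (2509) and Hsd17b12 (2729), while Elovl1, Elovl3, Elovl5 and Fads2 were not. Scd2 read 903 in control 4°C 2 against 108 to 253 in the others, while Scd1 in that mouse (267253) lay inside the range of its group. Without it the Scd2 difference by cold in the controls was log2 −1.85. The cause of these values was not tested.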

How the results depend on the processing

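Elovl3 was called in both genotypes under every alternative, and no member was called for genotype or interaction under any. Scd2 in BAT-Mcu-KO, and Elovl1, Fads3, Fads1, Scd1 and Scd2 over both genotypes, also kept their calls under every alternative. Fads1 in BAT-Mcu-KO lost its call without the mice with most muscle RNA. In the controls 4 members were called higher and 1 lower. The number higher was 1 with 75th percentile scaling, with the compared groups alone, and without the 5 mice with most muscle RNA (a setting chosen after seeing the data), and 1 to 4 with each mouse left out. It was 3 with quantile normalization, DESeq2, edgeR and the replicate block, and with a mean of 50 or more, where Fads2 was not tested. The number lower was 3 with 75th percentile scaling or a mean of 50 or more, 2 with 8 or more in every sample, the compared groups alone, DESeq2, or without the 3 libraries of lowest depth (chosen after seeing the data), and 0 to 3 with each mouse left out (0 without control 4°C 4 or 5). In BAT-Mcu-KO quantile normalization called 2 higher instead of 1, and 1 lower instead of 3 was called without the mice with most muscle RNA. The smaller number of mice is part of that setting's construction, and the cause of the other changes was not tested.

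Replicate numbers did not pair the mice (mean correlation of same-numbered deviations −0.0291 and −0.0952 for the cold contrasts, −0.0355 and 0.121 for genotype). With the replicate block 2 members were lower in the controls, Scd1 being added, and Fads2 lost its call there (log2 0.55, limma adjusted p = 0.066) and over both genotypes (0.37, adjusted p = 0.056). Under the block Scd2 differed by 0.096 between genotypes at 4°C and by 0.10 in the interaction, and Elovl5 by −0.00041 with cold over both genotypes.

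Signs turned for differences near 0, none of them called. The log2 difference of Elovl5 with cold over both genotypes, 0.02, became −0.15 with quantile normalization, −0.057 with 75th percentile scaling, −0.0011 in edgeR, −0.059 without the muscle-rich mice, −0.027 without the shallow libraries, and −0.024 to 0.065 with each mouse left out. In BAT-Mcu-KO it became −0.042 with quantile normalization and −0.025 without the muscle-rich mice. For Scd2 the genotype difference at 4°C, −0.01, became 0.0017, 0.015, 0.29 and 0.71 with quantile normalization, 75th percentile scaling, without the muscle-rich mice and without the shallow libraries, and its interaction 0.024, 0.048, 0.33 and 0.71. At RT it was 0.069 in DESeq2 and 0.064 in edgeR. Without the muscle-rich mice the genotype difference of Fads1 at RT was −0.13 and the interactions of Elovl3 and Fads3 were −0.25 and 0.11. The Scd1 interaction was 0.074 without the shallow libraries, and the Elovl5 genotype difference at RT −0.0021 with 75th percentile scaling. With each mouse left out, the genotype difference at RT ranged over −0.0038 to 0.24 for Elovl1, −0.057 to 0.12 for Elovl5, −0.14 to 0.082 for Elovl6, −0.0018 to 0.23 for Fads2, −0.24 to 0.045 for Scd1 and −0.20 to 0.22 for Scd2. At 4°C it ranged over −0.054 to 0.11 for Elovl6 and −0.28 to 0.48 for Scd2. The interaction ranged over −0.12 to 0.29 for Elovl3, −0.061 to 0.17 for Elovl6, −0.38 to 0.0038 for Fads3, −0.28 to 0.036 for Scd1 and −0.28 to 0.49 for Scd2.

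Fads1, Fads2 and Fads3 rested on as few as 21 reads in a library, which limits their precision. RNA levels give neither enzyme activity nor the acyl chains of the tissue. The cold groups were sampled at 1 time, and with 5 or 6 mice a group the genotype intervals leave differences of the sizes given above.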
